A study of Homo sapiens with 3 samples.

Results

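The genes described here are 10 of the 33538 genes counted in droplet single-cell RNA-seq of HCT116, a human colorectal cancer line. They are members of the BCL2 family and were taken by name, not by their values: BCL2L1, MCL1, BAX, BAK1, BBC3, PMAIP1, BID, BIK, BAD and BCL2L12. All 10 were found in the matrices under their Ensembl IDs, and all 10 were measured in every comparison, which here means at least 10 CPM (UMIs scaled to a total of 1000000 per population) in either population.

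The cells carried wild-type p53 (genotype label p53plus). The study follows giant cells that outlive irradiation, which it calls radiation-tolerant persister (RTP) cells, and the smaller progeny that arise from them by budding. Library Mix1 held cells given 8 Gy, pooled from 4 preparations that carry no mark of their own. Giant cells were picked on day 5 or 8 and the cultures collected on day 10 or 11. Library Mix2 held irradiated cells prepared in the same way (IR, hashtag antibody tag8). It also held cells that were never irradiated (NC, tag6, 0 Gy) and repopulated cells that had regrown after irradiation (R, tag7). These were loaded at 10000 IR, 1000 NC and 1000 R cells. The study describes the irradiated cells of both libraries as spanning stages before, during and after budding, so progeny may be among them. Cells of Mix2 were placed by their tag counts. Strong IR cells had at least 3160 tag8 counts, weak IR cells had 500 to 3159, NC cells had at least 374 tag6 counts and R cells at least 104 tag7 counts, and the own tag had to make up at least 80% of the tag counts of the cell. This gave 2216 strong IR, 6322 weak IR, 633 R and 810 NC cells, beside 15630 cells of Mix1. Each population is 1 sample of 1 cell line. Differences between populations therefore rest on no replicates and were not tested, and every interval is an exact 95% interval that covers counting error only.

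Median UMIs per cell were 11861.5 in strong IR, 7216 in weak IR, 8995.5 in Mix1, 6933 in R and 7160.5 in NC cells. UMIs of the populations summed to between 4731705 (R) and 150680612 (Mix1). All 6 epithelial markers stood above 10 CPM in every population, and no fibroblast, immune, endothelial or erythroid marker reached that level in any of them. CDKN1A, the cell cycle inhibitor that p53 induces, stood at 918 CPM in strong IR, 265 in weak IR, 630 in Mix1, 255 in R and 180 CPM in NC cells. MDM2, the ubiquitin ligase that p53 induces against itself, stood at 60.2, 43.5, 57.3, 41.6 and 34.1 CPM in the same order. Weak IR cells thus lay much closer to NC than strong IR cells did. Droplets without cells in Mix2 (59162 droplets of 100 to 1000 UMIs) carried a median of 121 tag8 counts, under the lower limit of weak IR, and 59 barcodes were shared by the 2 libraries.

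Proteins of the BCL2 family decide whether the outer membrane of mitochondria is opened, the step that releases cytochrome c and commits a cell to apoptosis. BAX and BAK1 form the pores. BCL-XL (from BCL2L1) and MCL1 hold them in check, and BH3-only proteins such as PUMA (BBC3), NOXA (PMAIP1), BID, BIK and BAD bind the guardians or engage the effectors directly. BBC3, PMAIP1 and BAX are textbook targets of p53, the transcription factor that ionizing radiation activates. MCL1 protein is short-lived, and several members are also controlled after transcription, which RNA counts do not show.

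Because several members are known p53 targets, the genome around the start of each member was read for the p53 consensus of 2 adjacent decamer half-sites of 10 bases. The window ran 2000 bases to each side of the start of the MANE Select transcript (GRCh38, GENCODE 44), up to 3 of the 20 bases were allowed to differ, and the C and G core of both half-sites had to be present. The consensus is its own reverse complement, so both strands were covered. A match was found for 5 of the 10 members, BAX, BAK1, BBC3, PMAIP1 and BIK, while 16.1% of 19061 protein-coding genes held one. With at most 2 differing bases, 3 members (BAX, PMAIP1 and BIK) and 2.92% of genes held one. The match of each member with fewest differing bases is shown 5′ to 3′ on the strand of the gene, so that its letters can be read beside the levels below. Positions are those of the centre of the match from the start. Capitals mark bases that fit the consensus, and a match is a description of letters, not evidence of binding.
BBC3, chr19:47231320-47231339, minus strand, upstream at -130: ctGCAAGTCCtGACTTGTCC
PMAIP1, chr18:59899549-59899568, plus strand, upstream at -438: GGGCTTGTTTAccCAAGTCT
BIK, chr22:43112688-43112707, plus strand, in an intron at 1948: AGACTAGaCTGGGCTAGaCC
BAX, chr19:48955213-48955232, plus strand, in an intron at 348: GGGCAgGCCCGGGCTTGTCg
BAK1, chr6:33579671-33579690, minus strand, in an intron at 596: GGGCcTGgCCAGGCATGTaT

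BAX has another feature in its promoter. The 250 bases before its RefSeq start (GRCh38.p14, chr19:48954625-48954874, plus strand) held 4 copies of the E-box CACGTG, shown in capitals. Of 35116 RefSeq promoter windows of 300 bases, 7.26% held this motif at least once on either strand. The 8 members with a window had 15 windows, of which 4 held it, in BAX, BBC3 and BID. The BID windows that held it overlap and share the same copy. The motifs TTTGAA, TTTGGCGC and TTTCCCGC, also searched, were found in no member window and in 15.2%, 0.652% and 1.63% of all windows.
BAX: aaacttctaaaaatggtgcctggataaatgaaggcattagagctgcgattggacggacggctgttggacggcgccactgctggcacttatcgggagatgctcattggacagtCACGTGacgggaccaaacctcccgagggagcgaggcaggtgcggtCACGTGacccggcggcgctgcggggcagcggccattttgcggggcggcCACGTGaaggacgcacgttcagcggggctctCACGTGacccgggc

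The first comparison asks how members of the family differ between irradiated cells with a strong tag and cells that were never irradiated. In strong IR cells 4 of the 10 members stood at least 1.5-fold higher than in NC cells, namely BBC3, BIK, BAX and PMAIP1, and none stood at least 1.5-fold lower. Of 7722 genes measured in this comparison, 9.92% passed the limit upward and 15.4% downward. The median log2 ratio of the members was 0.56, against -0.11 over all measured genes. All 4 promote cell death, as do 7 of the 10 members. The anti-apoptotic BCL2L1 lay just under the limit at 1.496, and several alternative settings listed at the end put it past the limit. Intervals lay above 1 for 7 members and below 1 for BCL2L12, where they lay above 1 for 25% of measured genes and below 1 for 40.3%.

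**Figure D1:**
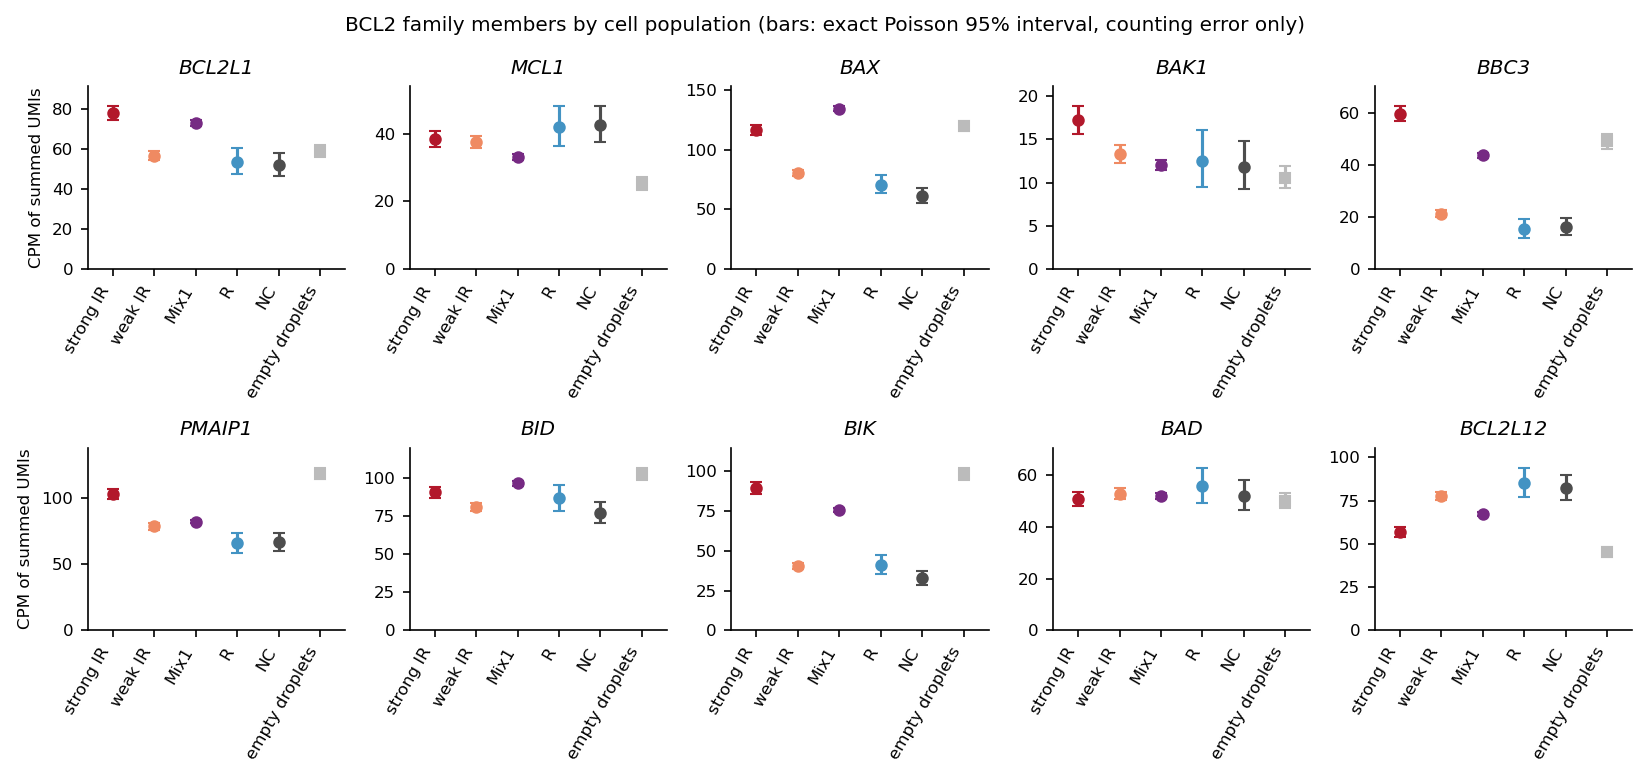
Level of each member (CPM of summed UMIs, vertical axis from 0) in strong IR, weak IR, Mix1, R and NC cells and in Mix2 droplets without cells, with exact Poisson 95% intervals for counting error only. BBC3, BIK and BAX stand clearly above NC in strong IR and Mix1, while BAD lies between 50.7 and 55.8 CPM in all 5 populations.

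Among the anti-apoptotic members, BCL2L1 (ENSG00000171552, chr20:31664452-31723989, minus strand) differed more. It stood at 77.9 CPM in strong IR, 56.6 in weak IR, 72.9 in Mix1, 53.7 in R and 52.1 CPM in NC cells. Strong IR and Mix1 lay above the other populations beyond counting error, and the ratio of strong IR to NC was 1.496 (1.33 to 1.69), just under the limit of 1.5, which BCL2L1 and BAK1 passed with TMM scaling. MCL1 (ENSG00000143384, chr1:150560895-150579738, minus strand) stood at 38.3 CPM in strong IR, 37.5 in weak IR, 33.0 in Mix1, 41.8 in R and 42.6 CPM in NC cells. Its ratio of 0.90 (0.78 to 1.03) for strong IR against NC did not exclude equality, and only in Mix1 was it below 1 beyond counting error, at 0.78 (0.68 to 0.88). The number of BCL2L1 UMIs per MCL1 UMI was therefore 2.03 in strong IR, 1.51 in weak IR, 2.21 in Mix1, 1.28 in R and 1.22 in NC cells. A UMI marks the 3′ end of a transcript and does not grow with its length, so such sums and ratios over genes carry no length term. An exon of BCL2L1 overlaps the antisense RNA ABALON. BCL2L1 was detected in 56.5% of strong IR and 31.7% of NC cells, or in 31.3% and 23.2% after each cell was thinned to 5000 UMIs.

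The pore-forming pair was uneven. BAX (ENSG00000087088, chr19:48954815-48961798, plus strand) stood at 117 CPM in strong IR, 80.3 in weak IR, 135 in Mix1, 70.8 in R and 61.6 CPM in NC cells. The ratio to NC was 1.90 (1.70 to 2.12) in strong IR and 2.19 (1.98 to 2.43) in Mix1, the highest level of BAX being in Mix1. It was the most widely detected member in strong IR, in 70.4% of cells against 34.0% of NC cells, or 43.2% against 25.0% after thinning, beside 4.78% of droplets without cells. BAK1 (ENSG00000030110, chr6:33572547-33580293, minus strand) was the member with fewest UMIs, from 59 in R to 1815 in Mix1. Its level was 17.2 CPM in strong IR, 13.3 in weak IR, 12.0 in Mix1, 12.5 in R and 11.8 CPM in NC cells, so only strong IR, at a ratio of 1.46 (1.14 to 1.90), lay above NC beyond counting error. Mix1 had 11.2 BAX UMIs per BAK1 UMI, strong IR 6.79 and NC 5.22. BAK1 has 2 pseudogenes and BCL2L12 has 1 that the matrices do not list, and reads shared with them could have been lost or moved by the counting.

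The largest ratio in the family belonged to BBC3 (ENSG00000105327, chr19:47220822-47232766, minus strand), which encodes PUMA, a BH3-only protein that binds all anti-apoptotic members. It stood at 59.6 CPM in strong IR, 21.2 in weak IR, 43.7 in Mix1, 15.2 in R and 16.1 CPM in NC cells. The ratio of strong IR to NC was 3.71 (3.03 to 4.60), and 99.4% of measured genes had a lower one. BBC3 was detected in 44.2% of strong IR cells (980 of 2216) and 10.2% of NC cells (83 of 810). After thinning the shares were 24.5% and 7.15%, with 150 strong IR and 111 NC cells left out as too shallow. A droplet without a cell, at a median of 401 UMIs, held a BBC3 UMI in 1.97% of cases, but its summed profile had 49.1 CPM, above the level of NC cells. Free RNA of Mix2 thus carried more BBC3 per UMI than NC cells did, and after this profile was subtracted the ratio of strong IR to NC was 4.22.

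BIK (ENSG00000100290, chr22:43110750-43129712, plus strand), a BH3-only protein of the endoplasmic reticulum, followed BBC3 in size. Its level was 89.3 CPM in strong IR, 40.5 in weak IR, 75.5 in Mix1, 41.2 in R and 32.6 CPM in NC cells. The ratio to NC was 2.74 (2.37 to 3.18) in strong IR and 2.32 (2.01 to 2.68) in Mix1. It was detected in 57.3% of strong IR and 21.2% of NC cells, or in 32.9% and 14.9% after thinning, against 3.91% of droplets without cells. BIK was also the only member whose interval lay above 1 in R cells, with a ratio to NC of 1.26 (1.03 to 1.55), where intervals lay above 1 for 7.89% of measured genes and below 1 for 12.6%.

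PMAIP1 (ENSG00000141682, chr18:59899996-59904305, plus strand) encodes NOXA, which binds MCL1 above all. It stood at 103 CPM in strong IR, 78.5 in weak IR, 82.1 in Mix1, 65.7 in R and 66.3 CPM in NC cells. The ratio of strong IR to NC was 1.55 (1.40 to 1.73), close to the limit, and that of Mix1 to NC was 1.24 (1.12 to 1.37). Droplets without cells had 118 CPM, above every population, as they also did for BIK (98.1 CPM) and BID (102.5 CPM). The share of cells with a PMAIP1 UMI after thinning was 32.2% in strong IR and 26.9% in NC cells, a smaller gap than in its CPM, and in thinned cells PMAIP1 no longer passed the limit.

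The remaining BH3-only members moved little. BID (ENSG00000015475, chr22:17734138-17774770, minus strand), which caspase-8 cleaves to link death receptors to mitochondria, stood at 90.7 CPM in strong IR, 81.1 in weak IR, 96.5 in Mix1, 86.7 in R and 77.0 CPM in NC cells. Its ratio to NC was 1.18 (1.07 to 1.3) in strong IR and 1.25 (1.14 to 1.38) in Mix1, above 1 but well under the limit. BAD (ENSG00000002330, chr11:64269830-64284704, minus strand), which survival kinases control by phosphorylation, stood at 50.7 CPM in strong IR and 52.1 CPM in NC cells, a ratio of 0.97 (0.86 to 1.10). An exon of BAD overlaps GPR137 on the opposite strand. BAD was the member whose level varied least over the populations.

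BCL2L12 (ENSG00000126453, chr19:49665142-49673916, plus strand), an atypical member that has been reported to act against caspases and p53 rather than at the mitochondrial membrane, went the other way. It stood at 56.9 CPM in strong IR, 77.7 in weak IR, 67.3 in Mix1, 85.2 in R and 82.4 CPM in NC cells. The ratio of strong IR to NC was 0.69 (0.62 to 0.77) and that of Mix1 to NC was 0.82 (0.75 to 0.90), neither past the lower limit of 0.667. In thinned cells and in cells under 5% mitochondrial UMIs strong IR did pass it. The gene overlaps IRF3 on the opposite strand, outside the exons of its MANE Select transcript.

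**Figure D2:**
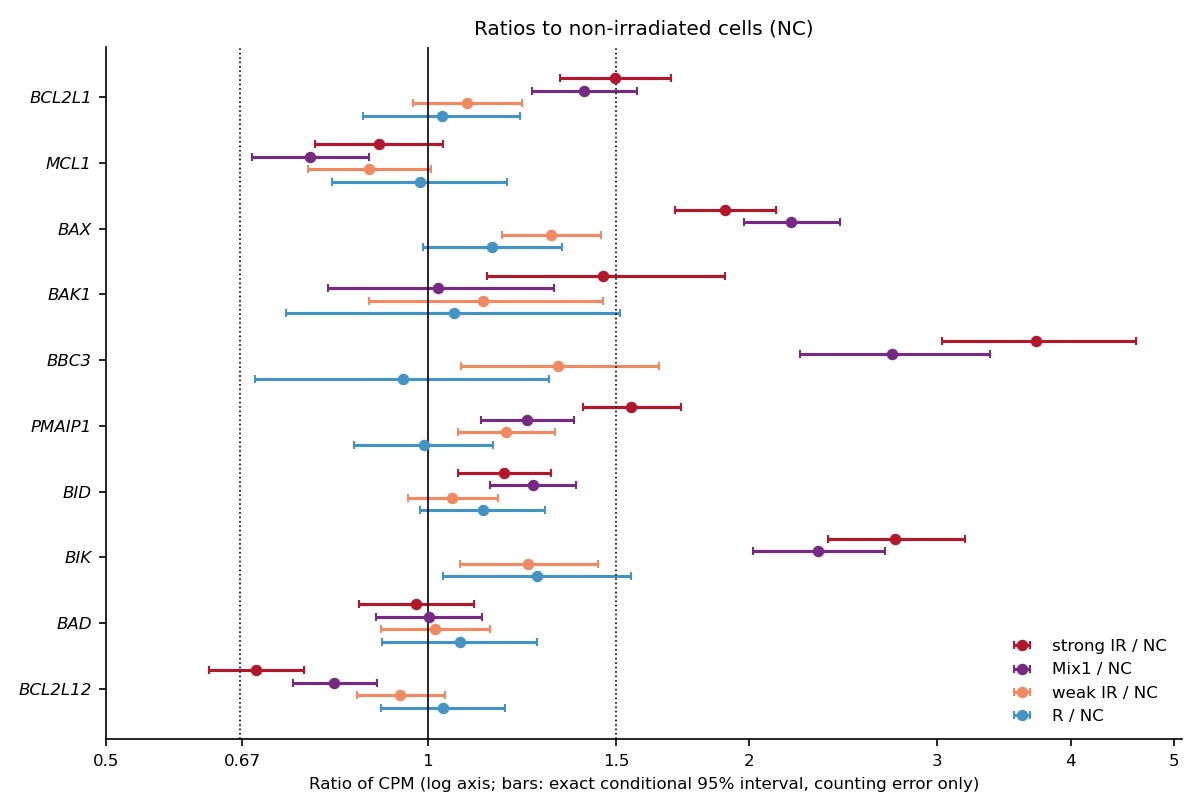
Ratio of CPM to NC cells for each member (horizontal log axis) in strong IR, Mix1, weak IR and R cells, with exact conditional 95% intervals for counting error only. Dotted lines mark 1.5-fold in either direction. In strong IR, BBC3 (3.71), BIK (2.74), BAX (1.90) and PMAIP1 (1.55) lie past the right line, and no member lies past the left one.

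CPM divides by the UMIs of the cells, and relative to an NC cell a strong IR cell held on average 1.62 times, a Mix1 cell 1.28 times and a weak IR cell 0.986 times as many. Counted per cell, strong IR cells held 73.0 BBC3 UMIs per 100 cells against 12.1 in NC cells, a ratio of 6.03. On that scale MCL1, BAD and BCL2L12 also stood higher, with ratios of 1.46, 1.58 and 1.12, although their CPM ratios were below 1 (with TMM scaling the log2 ratio of BAD was 0.04). For these 3 members the direction depends on whether levels are given per UMI or per cell. UMIs per cell also depend on the yield of each droplet, and the part of cell size was not tested.

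Weak IR cells showed the same members at smaller ratios. None of the 10 passed the limit in either direction against NC, where 0.709% of 7478 measured genes passed it upward and 0.481% downward. The intervals of 4 members lay above 1 and of none below, where they lay above 1 for 10.1% of measured genes and below 1 for 14.7%. These members had ratios of 1.32 for BBC3 (1.07 to 1.65), 1.3 for BAX (1.17 to 1.45), 1.24 for BIK (1.07 to 1.44) and 1.18 for PMAIP1 (1.07 to 1.31). When only cells under 5% mitochondrial UMIs were kept, these 4 members passed 1.5-fold, beside 6.66% of measured genes, with 1160 weak IR and 172 NC cells left. Set against weak IR cells of the same library, strong IR cells had BBC3 at 2.81 times (2.59 to 3.04) and BIK at 2.21 times (2.08 to 2.34) the level. These 2 of 10 passed the limit upward and none downward, where 7.23% of genes passed it upward and 10.6% downward.

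Against R cells, which share the library, strong IR cells stood at 3.92 (3.09 to 5.03) for BBC3, 2.17 (1.87 to 2.52) for BIK, 1.65 (1.47 to 1.85) for BAX and 1.57 (1.39 to 1.77) for PMAIP1. Intervals also excluded 1 for BCL2L1 at 1.45 (1.27 to 1.66), BAK1 at 1.38 (1.05 to 1.84) and BCL2L12 at 0.668 (0.60 to 0.75). MCL1, BID and BAD had intervals around 1. The median log2 ratio of the members was 0.50, against -0.07 over 7658 measured genes. Shares of all genes past 1.5-fold or with intervals excluding 1 are not given for this comparison, so these calls have no background beside them.

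R cells stood close to NC. No member passed the limit, where 1.45% of 7533 measured genes passed it upward and 1.83% downward. BBC3, at a ratio of 0.95 (0.69 to 1.3), and PMAIP1, at 0.99 (0.85 to 1.15), had intervals around 1. R cells gave only 72 BBC3 UMIs, and differences within that interval were not detectable at this depth.

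Mix1 held irradiated cells in a library without NC cells, so that irradiation and library cannot be told apart in its comparison with NC. In Mix1, 3 of 10 members, BBC3 at 2.72 (2.23 to 3.36), BIK and BAX, passed the limit upward and none downward, where 6.97% of 7662 measured genes passed it upward and 10% downward. All 3 were among the 4 of strong IR, which shares the NC cells with this comparison. The 2 irradiated sets did not have the same levels. They are also not alike in choice, as strong IR is a part of the irradiated Mix2 cells picked by tag8. Mix1 holds all kept cells of its library. Strong IR stood above Mix1 for BBC3 (59.6 and 43.7 CPM), BIK (89.3 and 75.5), PMAIP1 (103 and 82.1), BAK1 (17.2 and 12.0) and MCL1 (38.3 and 33.0), and below it for BAX (117 and 135) and BCL2L12 (56.9 and 67.3). Weak IR, the larger part, stood below Mix1 for BBC3 (21.2 CPM), BIK (40.5), PMAIP1 (78.5) and BAX (80.3). It stood above Mix1 for BAK1 (13.3), MCL1 (37.5) and BCL2L12 (77.7). Median mitochondrial shares were 3.41% in Mix1, 5.65% in strong IR and 6.0% in NC cells, and their part in these values was not tested.

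Balance was taken as UMIs of the 7 pro-apoptotic members (BAX, BAK1, BBC3, PMAIP1, BID, BIK and BAD) over those of the 2 anti-apoptotic members. The pro-apoptotic side made up 81.9% (81.4 to 82.5) of these UMIs in strong IR, 79.6% (79.1 to 80.2) in weak IR, 82.4% (82.2 to 82.7) in Mix1, 78.5% (76.6 to 80.2) in R and 77.0% (75.3 to 78.7) in NC cells. The odds ratio against NC was 1.35 (1.22 to 1.5) for strong IR, 1.17 (1.05 to 1.29) for weak IR and 1.40 (1.27 to 1.54) for Mix1, while that of R, 1.09 (0.94 to 1.25), did not exclude equality. Summed pro-apoptotic members stood at 527 CPM in strong IR and 317 CPM in NC cells, and the anti-apoptotic pair at 116 CPM in strong IR and 94.7 CPM in NC cells, so both sides were higher in strong IR. Without BBC3 and BIK the odds ratio of strong IR against NC was 1.15 (1.03 to 1.27). Without MCL1 its log2 value was 0.15, against 0.44 with it. Droplets without cells had a pro-apoptotic share of 86.7%, above every population.

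**Figure D3:**
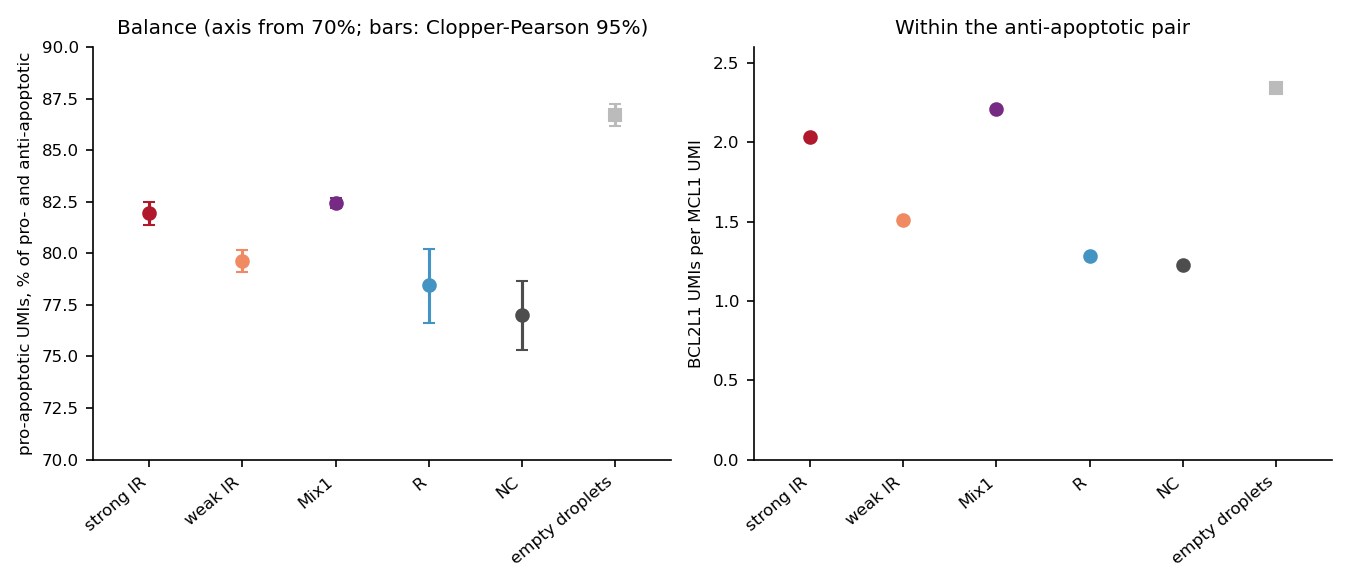
Left, pro-apoptotic UMIs as a percentage of pro- and anti-apoptotic UMIs (axis from 70%), with Clopper-Pearson 95% intervals for counting error only. Right, BCL2L1 UMIs per MCL1 UMI. Strong IR (81.9%) and Mix1 (82.4%) lie above NC (77.0%), and the ratio of BCL2L1 to MCL1 is 2.03 and 2.21 there against 1.22 in NC.

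Pairs that meet as proteins shifted by different amounts. BBC3 UMIs per BCL2L1 UMI numbered 0.765 in strong IR and 0.308 in NC cells, an odds ratio of 2.48 (1.95 to 3.17). PMAIP1 per MCL1 was 2.69 in strong IR and 1.56 in NC cells, an odds ratio of 1.72 (1.45 to 2.05). BAX per BCL2L1 was 1.5 in strong IR and 1.18 in NC cells, an odds ratio of 1.27 (1.08 to 1.49). Among the pro-apoptotic UMIs, BBC3 and BIK took larger shares in strong IR, and BID and BAD smaller ones. BBC3 made up 11.3% of them in strong IR and 5.06% in NC cells, BIK 16.9% and 10.3%, BID 17.2% and 24.3%, and BAD 9.62% and 16.4%.

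Per cell these RNAs are sparse. In cells thinned to 5000 UMIs, a strong IR cell held on average 2.62 pro-apoptotic and 0.582 anti-apoptotic UMIs, and an NC cell 1.61 and 0.462. Thinning left out 31.8% of Mix1, 17.4% of weak IR, 15.2% of R, 13.7% of NC and 6.77% of strong IR cells as too shallow. At least 3 different pro-apoptotic members were detected in 31.7% (29.7 to 33.7) of strong IR cells, 16.2% (15.2 to 17.2) of weak IR, 25.7% (24.9 to 26.5) of Mix1, 15.5% (12.5 to 18.8) of R and 13.2% (10.7 to 15.9) of NC cells. Cells without any pro-apoptotic UMI made up 9.68% in strong IR and 20.6% in NC. Cells without any BCL2L1 or MCL1 UMI were common everywhere, at 57.6% in strong IR and 61.1% in NC, which at this depth says little about absence. BBC3 and BIK were seen together in 8.28% (7.12 to 9.55) of strong IR cells, where the product of their separate shares was 8.07%. In Mix1 they were seen together in 5.37% (4.95 to 5.82) of cells, above the product of 4.14%.

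Among irradiated cells of Mix2 the members were then ordered by tag8 count. From the lowest bin (500 to under 1000 counts, 1835 cells) to the highest (at least 12000, 697 cells), BBC3 stood at 17.3, 19.8, 27.1, 49.2, 65.9 and 66.6 CPM, beside 16.1 CPM in NC cells. BIK stood at 39.3, 38.0, 46.1, 64.6, 96.8 and 114 CPM and was still higher in the last bin than in the one before. PMAIP1 had another course, with 79.4, 74.4, 85.6, 123, 100.6 and 78.3 CPM, so that it was highest at 3160 to under 6000 counts and in the last bin no longer differed from the first beyond counting error. BAX stood at 77.1 CPM in the first bin and 125 in the last, BCL2L1 at 54.3 and 80.3, BID at 80.2 and 97.3, and BCL2L12 at 74.7 and 53 CPM. MCL1 and BAD had no order over the bins. Across the same bins CDKN1A stood at 255, 232, 336, 728, 1016 and 1062 CPM, and the sum of 32 proliferation genes averaged 3359, 3961, 3983, 2730, 1678 and 1205 CPM per cell. Median UMIs per cell and mitochondrial share also differed between bins, with 5720 UMIs and 6.29% in the first, 13371 and 5.78% in the fifth, and 10713 and 3.07% in the last, and their part was not tested.

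**Figure D4:**
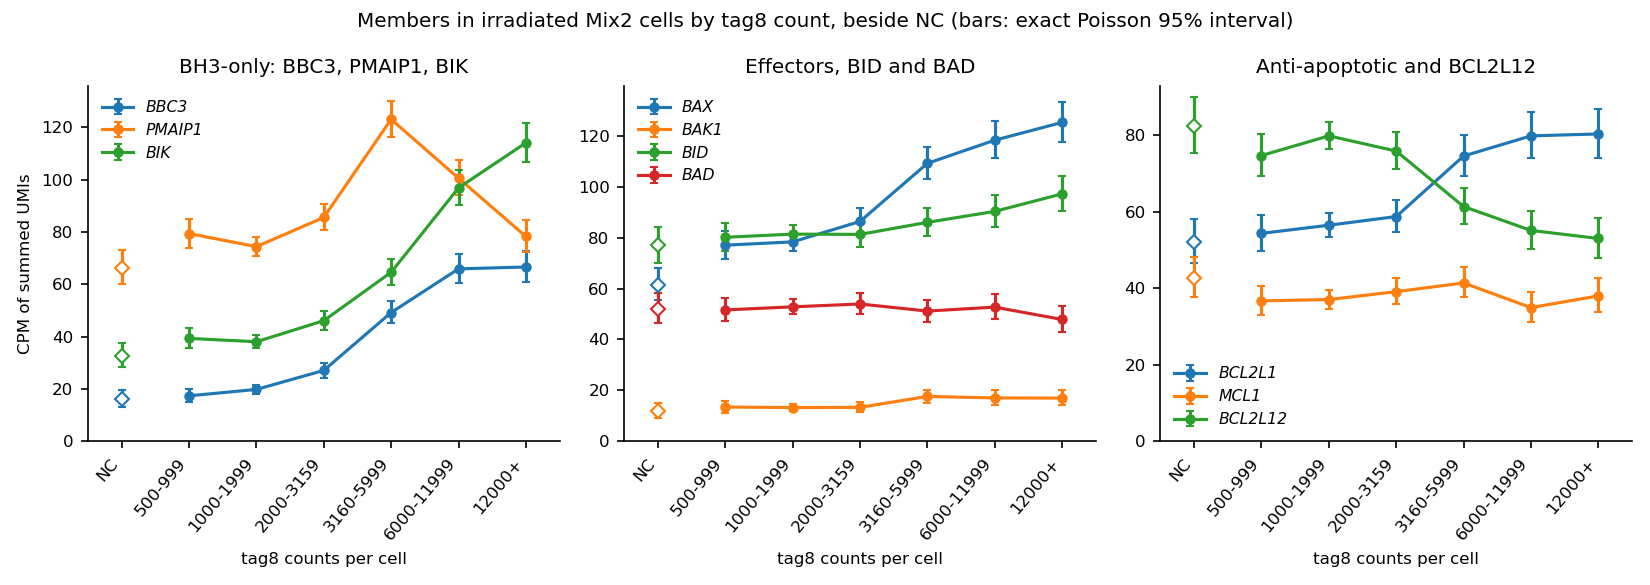
CPM of summed UMIs (vertical axis from 0) of the 10 members in irradiated Mix2 cells grouped by tag8 counts per cell, with NC cells as open diamonds at the left and exact Poisson 95% intervals. BBC3 and BIK climb to 66.6 and 114 CPM, PMAIP1 peaks at 123 CPM in the fourth bin, and BCL2L12 declines to 53 CPM.

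Cells of each population were also split by 2 lists that contain no member, at the median of NC cells. The first was 20 p53 targets (CDKN1A, MDM2, GDF15 and others) and the second the proliferation genes, and 91.4% of strong IR cells lay above the p53 median and 11.7% above the proliferation median. Within strong IR, cells above the p53 median had 6.16 times (4.12 to 9.64) the BBC3 level of cells at or below it, in Mix1 4.96 times (4.40 to 5.62), in weak IR 2.57 times (2.22 to 2.98), in R 1.69 times (1.02 to 2.84) and in NC cells 1.38 times (0.91 to 2.12). The p53 list summed to 2719 CPM in strong IR and 839 CPM in NC cells. Upper cells of different populations thus need not be alike in p53 targets, and these ratios are not on 1 scale. BAX, BAK1, PMAIP1 and BIK were higher in the upper cells of strong IR too, at 1.76, 1.79 (1.18 to 2.85), 1.60 and 1.78 times the level, whereas BCL2L12 stood at 0.67 times the level (0.58 to 0.79). BID and MCL1 had intervals around 1 in all 5 populations. In cells at or below the p53 median, BBC3 did not differ between strong IR (191 cells) and NC beyond counting error, with a ratio of 0.77 (0.45 to 1.31), while BIK still stood at 1.48 (1.13 to 1.94) and BCL2L1 at 1.41 (1.12 to 1.79).

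The proliferation split ran the other way for several members. Within strong IR, cells above the NC median of that list had 0.34 times (0.27 to 0.43) the BBC3 level and 0.58 times (0.49 to 0.67) the BIK level of the other cells, and 1.59 times (1.40 to 1.81) the BCL2L12 level. Among cells above that median, strong IR (259 cells) stood at 1.68 times (1.15 to 2.48) NC for BBC3 and at 1.03 times (0.87 to 1.22) for BCL2L12. Among cells at or below it the ratios were 3.37 (2.57 to 4.51) and 0.63 (0.55 to 0.73). The count of members past 1.5-fold in strong IR was 2 of 10 in the proliferating cells, where 6.61% of measured genes passed the limit in either direction, and 7 of 10 in the others, where 29.3% did. The lower BCL2L12 level of strong IR was thus not seen among cells with high proliferation genes. In Mix1 the BBC3 ratio to NC was 0.89 (0.65 to 1.26) among proliferating cells and 2.58 (1.98 to 3.44) among the others. Each split uses genes counted in the same cells, so cell depth and free RNA are shared by the 2 measures.

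**Figure D5:**
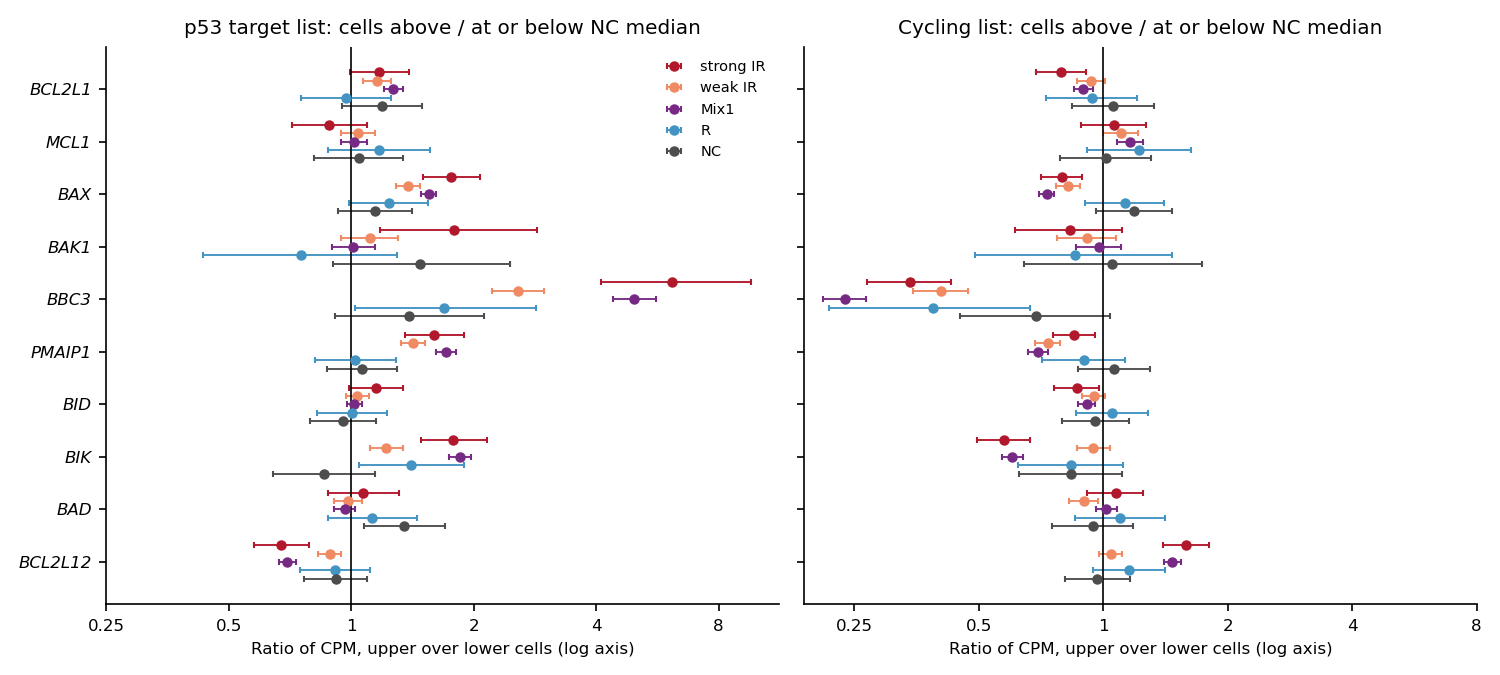
Ratio of CPM (horizontal log axis) between cells above and cells at or below the NC median of the p53 target list (left) and of the proliferation list (right), for each member and population, with exact conditional 95% intervals for counting error only. In strong IR, BBC3 is the member farthest from 1 in both panels, at 6.16 and 0.34, and BCL2L12, at 0.67 and 1.59, lies on the opposite side.

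Other genes of the pathway were counted in lists by function. In strong IR against NC, 9.92% of all 7722 measured genes passed the limit upward and 15.4% downward. Of 14 further BCL2 family genes, 6 were measured in strong IR or NC cells and 1 passed the limit, BNIP3L, a mitophagy receptor, at 2.3 (1.90 to 2.81). BOK stood at 1.3, BNIP3 at 1.23 and BCL2L11, the BH3-only protein BIM, at 1.20 times the NC level. BCL2 itself did not reach 10 CPM in either. Of 14 apoptosome and caspase genes, 10 were measured and none passed upward. AIFM1 stood at 0.69, PARP1 at 0.74 and CYCS, cytochrome c, at 0.78 times the NC level. The median log2 ratio of that list was -0.29, against -0.11 over all genes. Of 5 measured inhibitors of apoptosis, BIRC3 stood at 3.54 (2.48 to 5.24), from 32 UMIs in NC cells, and BIRC5, survivin, which also serves chromosome segregation, at 0.42 (0.40 to 0.45). BIRC2 stood at 1.44 and BIRC6 at 0.76. None of 11 outer membrane partners passed the limit, and the farthest from 1 were DNM1L, the fission GTPase, at 0.67 and just short of the lower limit, OPA1 at 0.69, VDAC1 at 0.74 and HUWE1, a ligase of MCL1, at 0.79.

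The 10 measured death receptors and adaptors had a median log2 ratio of 0.25 in strong IR. Beside 9.92% of all measured genes upward and 15.4% downward, 4 of these 10 passed the limit upward and none downward. They were FAS at 2.44 (1.88 to 3.20), the TRAIL receptors TNFRSF10D at 1.82 (1.31 to 2.59) and TNFRSF10B at 1.56 (1.27 to 1.91), and the adaptor TRADD at 1.58 (1.27 to 1.98). FAS and TNFRSF10B are also on the p53 target list, of which 15 of 18 measured genes passed upward, led by TP53INP1 at 5.98 and TP53I3 at 5.96 times the NC level. CDKN1A stood at 5.09 and BTG2 at 4.26 times that level. All 32 proliferation genes passed downward, and BUB1, at 0.34, MCM4, CENPF and BUB1B were the lowest. In Mix1 against NC, 6.97% of all measured genes passed upward and 10% downward. In Mix1, 1 of 6 further family genes (BNIP3L at 2.14), 1 of 5 inhibitors of apoptosis (BIRC3 at 2.55), 2 of 10 death receptors and adaptors (FAS at 1.98 and TNFRSF10D at 1.55) and 12 of 18 p53 targets passed upward, and BIRC5 (0.60) and 30 of 32 proliferation genes passed downward. In weak IR, 4 of 18 p53 targets passed upward and no gene of the other lists passed in either direction, and in R none of the 7 lists had a call. Of all measured genes, 0.709% passed upward and 0.481% downward in weak IR, and 1.45% and 1.83% in R.

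Likeness to each member was measured as the root mean square difference of log2 CPM, centred over the 5 populations, among 4448 genes with at least 20 CPM in each. The gene most like BBC3 was GDF15, a p53-induced stress cytokine, at a difference of 0.12, followed by CST3 (0.17) and SLC2A1 (0.19). BIK was most like RHOC (0.03), FBXO2 (0.08) and ALDH1A3 (0.08), and BAX most like SCAND1 (0.03), PROCR (0.06) and LTBP3 (0.08). PMAIP1 was most like RNF11, TBRG1 and CTXN1, BCL2L1 most like TAF10 and UBL5, and BAK1 most like BIRC2, FAM83H and ACTR1A. BID was closest to NDUFB4, PTS and SIGIRR, BAD to MED31, SLC25A5 and APH1A, MCL1 to APMAP, SNX17 and LINC00467, and BCL2L12 to EXOSC3, YWHAH and PFDN6. With 5 points a gene, of which 4 share a library, a close pattern is a description only.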

How the data were processed

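Deposited values were raw UMI counts per gene and barcode on GRCh38. Per the file headers, the authors counted Mix1 with Cell Ranger 3.1.0 and Mix2 with Cell Ranger 3.0.1, and the submitters' processing notes also name Seurat 2.3. An unfiltered Mix2 matrix supplied droplets without cells only, whose limits of 100 to 1000 UMIs were set after the values had been seen. A barcode was kept where 200 genes or more were detected and mitochondrial UMIs stayed below 10%, which left 15630 of 17019 barcodes in Mix1 and 11652 of 13888 in Mix2. Of the kept Mix2 cells, 1671 met no tag rule. The study states fewer cells in each library. No doublet caller was run, and leaving out the 5% of cells with most UMIs was an alternative.

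CPM came from UMIs summed over the cells of a population (python 3.11.15, scipy 1.17.1). Ratios have exact conditional binomial (Clopper-Pearson) 95% intervals, and odds ratios have exact conditional ones. Cells are not replicates, so no test was made. The calculations were tested on simulated data. TMM factors for an alternative scaling came from edgeR 4.0.16. Named genes were all members, up to 4 genes per list with the largest absolute log2 ratio of strong IR to NC, 3 like genes per member, CDKN1A and MDM2. BCL2 was named after its value was seen. Members and lists were chosen with earlier results of these data known, and the limit of 3 differing bases in the p53 search was set after matches at 2 had been seen. Alternatives changed the tag rule, filters, scaling, depth, fold and cells used. Of the genes this rule names, 2 are not reported here.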

Additional observations from a re-analysis of the deposited data

Results flagged for a closer look

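Barcodes that entered no comparison also carried members at 1.5 times the NC level or more, with intervals above 1, and were noted for that reason. The share of all genes past 1.5-fold was not computed for these barcodes. Their levels therefore cannot be read as a result about the family. In the 1671 kept Mix2 cells that met no tag rule (median 2640 UMIs), BBC3 stood at 30.8 CPM and BIK at 51.8 CPM, against 16.1 and 32.6 CPM in NC cells. In the 2236 Mix2 barcodes over the mitochondrial limit, BCL2L1 stood at 79.5, BAX at 94.6, BBC3 at 59.4, PMAIP1 at 102 and BIK at 64.7 CPM. In the 1389 Mix1 barcodes over that limit, BCL2L1 stood at 87.8, BAX at 122, BBC3 at 61.2 and BIK at 75.9 CPM. BCL2L12 was lower there, at 45.8 CPM in Mix2 and 39.6 CPM in Mix1, against 82.4 CPM in NC cells. The pro-apoptotic share was 79.9% in cells without a tag call, 78.6% in the Mix2 and 79.8% in the Mix1 barcodes over the limit, and 77.0% in NC cells.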

How the results depend on the processing

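No paired analysis was possible because each population is a single sample. The count of members past 1.5-fold in strong IR was 4. It was 7 in cells at or below the NC median of the proliferation list and 2 in cells above it. It was 7 at 1.3-fold and 2 at 2-fold. In the same order 29.3%, 6.61%, 44.9% and 7.5% of measured genes passed in either direction, against 25.3% in the main setting. The count in weak IR was 0, but 4 under 5% mitochondrial UMIs, 1 with the mean of per-cell CPM (BBC3), 1 in cells low in proliferation genes (BAX) and 2 at 1.3-fold, where 11.1%, 1.81%, 3.05% and 5.23% of measured genes passed. In R it was 0, but 2 under 5% mitochondrial UMIs (31 R cells) and 1 in cells high in proliferation genes, where 35.5% and 7.51% passed. The Mix1 count of 3 stayed between 2 and 4. Of all measured genes in Mix1, 17.0% passed in either direction in the main setting, 3.99% at 2-fold and 34.7% at 1.3-fold. The log2 odds ratio of the balance was 0.44 in strong IR, and 0.68 under 5% mitochondrial UMIs, 0.27 in cells high in proliferation genes, 0.76 with BCL2L12 on the anti-apoptotic side and 0.15 without MCL1. In weak IR it was 0.22, and 0.53 under 5% mitochondrial UMIs. In Mix1 it was 0.48, and 0.67 under 5% mitochondrial UMIs, 0.15 in cells high in proliferation genes, 0.68 with BCL2L12, 0.34 without BAX and 0.16 without MCL1. Of the members past the limit, only BBC3 in Mix1 changed direction under these alternatives, with a log2 ratio of -0.16 in cells high in proliferation genes. The causes were not tested. The limit of 5% mitochondrial UMIs left 21.2% of NC and 4.90% of R cells. In R the balance was 0.12 and lay between -0.02 (a tag share of 90%) and 0.15. The strong IR count was 6 with TMM scaling and 5 in cells thinned to 5000 UMIs, where 24.5% and 28.1% of measured genes passed in either direction. In thinned cells BCL2L1 and BCL2L12 passed the limit and PMAIP1 did not. BCL2L1, PMAIP1 and BAK1 thus lie near the limit, and BAK1 and R cells have the fewest UMIs.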
